A study of Mus musculus with 5 samples.

Results

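The comparison described here is the diet effect that sham-operated and pressure-overloaded hearts share in anti-ACAA2 ChIP-seq. It sets both libraries on high-fat diet against both libraries on control diet, paired by surgery: sham on high-fat over sham on control diet, and TAC on high-fat over TAC on control diet. TAC, transverse aortic constriction, is a banding of the aorta that makes the left ventricle work against high pressure. The animals were male C57Bl/6J mice, 12 weeks old. They ate a diet with 60 kcal% fat (high-fat) or 10 kcal% fat (control) for 4 days, had sham or TAC surgery, and stayed on their diet for 1 more week. Each of the 4 groups is 1 library, which the extraction text gives as a pool of 3, read here as hearts, so the comparison uses 4 of the 5 samples listed, with 2 libraries per diet. The fifth sample, a pooled input, was not analysed here and no background was subtracted. The antibody label names ACAA2, while the extraction text speaks of H3K9 butyrylation and acetylation antibodies, so the target rests on the label.

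The members are the 3885 merged regions of the deposited table, on mm10, with starts and ends printed as deposited. For each region and pair the log2 ratio of the average signal (mean fragment pileup over the region, plus a pseudocount of 1) was taken and centred on the median of all regions. The shared diet effect of a region is the mean of its 2 centred ratios. After centring, 1891 of the 3885 regions (48.7%) had the same sign in both pairs.

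ACAA2 is the 3-ketoacyl-CoA thiolase of mitochondria. It cleaves acetyl-CoA from the fatty acid chain in the closing step of each round of beta-oxidation, the pathway that gives the adult heart most of its energy. A high-fat diet brings more fatty acid to the heart and is known to engage PPAR-alpha, a nuclear receptor that switches on genes of fatty acid uptake, beta-oxidation and ketone use. ChIP-seq with an antibody to a protein maps the DNA fragments that it brings down.

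The promoters of 6 genes are shown, 3 for each direction. In rank order of the named regions (by the smaller of the 2 diet ratios), they are the first with a RefSeq start window that overlaps the region and is listed under the gene symbol the table gives. Snai1 (chr2:167537945-167538244), Nudt9 (chr5:104046614-104046913) and Cnpy2 (chr10:128322209-128322508), all on the plus strand, were higher on high-fat diet. Sel1l (chr12:91849108-91849407) and Tnfaip3 (chr10:19015361-19015660), on the minus strand, and Slc39a9 (chr12:80643965-80644264), on the plus strand, were lower. Each sequence is from RefSeq (GRCm38.p6, the assembly that mm10 is based on) and runs 5′ to 3′ from 250 bases before to 50 bases after the gene start. Capitals mark matches, on either strand, to any of the 12 motifs listed with the motif results, some of them by name only.
Snai1: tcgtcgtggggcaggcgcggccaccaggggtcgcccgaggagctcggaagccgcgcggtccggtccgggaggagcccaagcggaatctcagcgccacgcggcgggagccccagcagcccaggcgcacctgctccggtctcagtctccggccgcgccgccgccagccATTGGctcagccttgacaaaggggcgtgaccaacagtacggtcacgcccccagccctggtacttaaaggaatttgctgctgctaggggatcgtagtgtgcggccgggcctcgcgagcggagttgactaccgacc
Nudt9: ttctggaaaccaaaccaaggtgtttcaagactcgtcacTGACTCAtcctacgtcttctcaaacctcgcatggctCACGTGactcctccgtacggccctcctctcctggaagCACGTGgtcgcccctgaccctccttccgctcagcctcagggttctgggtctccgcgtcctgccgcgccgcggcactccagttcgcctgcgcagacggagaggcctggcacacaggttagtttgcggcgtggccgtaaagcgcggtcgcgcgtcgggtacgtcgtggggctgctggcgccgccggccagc
Cnpy2: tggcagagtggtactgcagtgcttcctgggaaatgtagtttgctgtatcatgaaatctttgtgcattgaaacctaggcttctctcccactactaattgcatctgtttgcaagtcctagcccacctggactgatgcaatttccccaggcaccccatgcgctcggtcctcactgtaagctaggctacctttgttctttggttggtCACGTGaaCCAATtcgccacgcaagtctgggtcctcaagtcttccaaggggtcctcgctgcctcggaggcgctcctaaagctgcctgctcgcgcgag
Sel1l: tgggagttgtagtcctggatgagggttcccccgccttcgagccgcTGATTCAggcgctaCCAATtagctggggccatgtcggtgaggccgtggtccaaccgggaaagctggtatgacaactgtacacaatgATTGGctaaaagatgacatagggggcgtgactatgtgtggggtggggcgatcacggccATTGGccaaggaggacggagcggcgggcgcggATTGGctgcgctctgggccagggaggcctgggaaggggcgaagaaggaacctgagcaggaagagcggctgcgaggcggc
Tnfaip3: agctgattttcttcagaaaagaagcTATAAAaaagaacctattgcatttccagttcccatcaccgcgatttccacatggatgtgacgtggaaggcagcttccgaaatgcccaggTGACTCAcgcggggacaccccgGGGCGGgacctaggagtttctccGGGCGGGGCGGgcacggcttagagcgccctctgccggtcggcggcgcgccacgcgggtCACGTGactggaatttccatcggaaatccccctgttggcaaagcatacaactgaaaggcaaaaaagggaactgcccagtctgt
Slc39a9: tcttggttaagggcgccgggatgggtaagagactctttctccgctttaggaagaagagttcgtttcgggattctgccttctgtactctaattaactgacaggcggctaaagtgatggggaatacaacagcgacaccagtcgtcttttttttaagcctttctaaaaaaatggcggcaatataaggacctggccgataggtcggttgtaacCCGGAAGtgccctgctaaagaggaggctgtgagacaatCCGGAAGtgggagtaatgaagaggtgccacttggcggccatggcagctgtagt

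Snai1 held 1 CCAAT box, Nudt9 2 E-boxes and 1 AP-1 match, and Cnpy2 1 CCAAT box and 1 E-box. Sel1l held 4 CCAAT boxes and 1 AP-1 match, Tnfaip3 3 GC boxes, 1 TATA box, 1 E-box and 1 AP-1 match, and Slc39a9 2 ETS matches. No motif was held by all 6 sequences. A match says only that these letters stand in the window.

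Signal over the regions was lower in both libraries on high-fat diet. An estimated 49593 fragments in sham and 62559 in TAC hearts on high-fat diet lay in the regions, against 75313 in sham and 68963 in TAC hearts on control diet. The diets do not overlap, but with 2 against 2 libraries a two-sided exact permutation test gives p = 0.333, the smallest it can give. Called intervals followed the same order, in 600 and 1396 regions for sham and TAC hearts on high-fat diet, against 2225 and 1820 for sham and TAC hearts on control diet. The sources used here do not give the depth of the libraries outside the regions or any matching between them, so a difference in depth and a difference in binding cannot be told apart at this level. The median region held 10.4 and 13.7 estimated fragments in sham and TAC hearts on high-fat diet, against 16.3 and 14.9 on control diet, and ratios of single regions rest on few fragments.

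Before centring, the median log2 ratio was -0.57 in the sham pair and -0.14 in the TAC pair. Both pairs were below 0 in 1786 regions (46.0%) and above 0 in 321 (8.26%). In 1352 regions (34.8%) both high-fat signals lay below both control-diet signals, and in 188 (4.84%) they lay above. The level difference was therefore larger in the sham pair. The centring on each pair's median takes it out, and the results that follow are relative to the median region.

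After centring, 48.7% of the 3885 regions had the same sign in both pairs. By the libraries in which a region was called, this share ran between 35.9% (1 high-fat and both control-diet libraries) and 100% (both high-fat libraries and no control-diet library). Both pairs were higher in 944 regions (24.3%) and lower in 947 (24.4%), and 1989 (51.2%) had opposite signs. Across the 3885 regions the diet ratio in the sham pair and that in the TAC pair had a Pearson correlation of -0.001 and a Spearman correlation of -0.01. The pairs share no library, and the regions share the calls that brought them into the table. The ratios spread about as widely in both pairs, with an SD over regions of 0.70 in the sham and 0.76 in the TAC pair.

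Deeper coverage did not go with closer agreement. Among the 1295 regions with the most estimated fragments (median length 492 bp) the correlation was -0.02 and 48.8% of regions had the same sign. Among the 1295 with the fewest these values were 0.04 and 50.6%. Among the 1295 with the lowest mean signal they were 0.02 and 49.6%. The same rule applied to surgery, TAC over sham on each diet, gave a correlation of 0.04 and the same sign in 50.9% of 3885 regions. These contrasts share all 4 libraries, and the difference between them was not tested.

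A region was counted as shared 2-fold where both pairs had the same sign and the mean ratio was at least 1 or at most -1 on the log2 scale. This held for 147 regions higher on high-fat diet (3.78%) and 77 lower (1.98%). The counts moved with the pseudocount, since a value of 5 gave 23 higher and 1 lower. They also moved with the centring: without it 37 were higher and 317 lower, and with centring on the 160 regions called in all 4 libraries 72 were higher and 152 lower. For surgery the same rule gave 116 regions higher and 116 lower after TAC (2.99% each). In both pairs separately at least 2-fold were 45 regions higher and 16 lower, while 40 regions were at least 2-fold higher in the sham pair and 2-fold lower in the TAC pair, and 18 the other way round. Agreement at this size was thus about as frequent as disagreement, 61 regions against 58.

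No region passed the test for diet. In limma, fitted over all 3885 regions with terms for diet and surgery, the adjusted p-values (Benjamini-Hochberg) were below 0.05 for 0 regions (0% in each direction). The smallest was 0.373. At an unadjusted p below 0.05 there were 110 regions higher and 31 lower on high-fat diet. The fit has 1 residual degree of freedom per region, the disagreement between the pairs, which limma moderates towards a trend over all regions. A small p therefore does not mean that the pairs agree. The smallest unadjusted limma p, 9.87e-05, was at a region near Stk30 with ratios of 2.386 in the sham pair and 0.295 in the TAC pair. The spread these p-values measure is only that between pools that also differ in surgery. The values below are therefore descriptions of single pools.

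**Figure D1:**
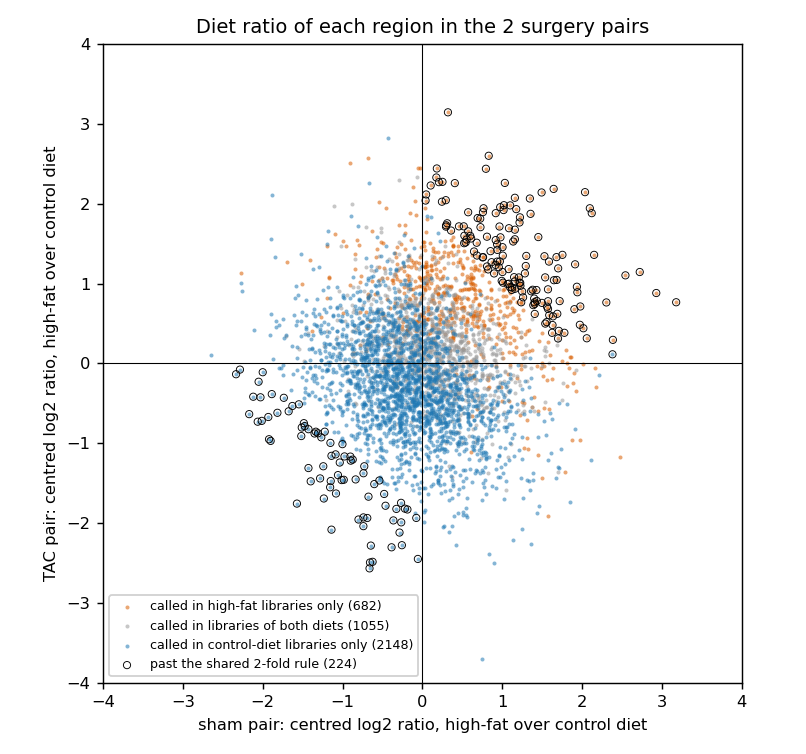
Each point is 1 of the 3885 regions, with its centred log2 ratio of high-fat over control diet in sham hearts (x) and TAC hearts (y), coloured by the libraries in which the authors called an interval. The cloud is round (Pearson -0.001), and the 224 circled regions past the shared 2-fold rule lie among regions called on 1 diet only.

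Which libraries carried a call went with the direction of the diet ratio. Of the 147 regions 2-fold higher on high-fat diet, 146 were called in high-fat libraries only and 1 in a control-diet library only. All 77 regions 2-fold lower were called in control-diet libraries only. Among the 1055 regions called in at least 1 library of each diet, 0 were past the rule in either direction. Since the table lists only regions with a call somewhere, these counts cannot be told apart from that selection.

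Of the 147 higher regions 43 were called in sham and 112 in TAC hearts on high-fat diet, and of all 3885 regions 600 and 1396 were. Of the 77 lower regions 41 were called in sham and 42 in TAC hearts on control diet, and of all 3885 regions 2225 and 1820 were. In the higher regions the median signal was 7.83 in sham and 12.3 in TAC hearts on high-fat diet, against 4.83 in sham and 4.50 in TAC hearts on control diet. In the lower regions it was 2.63 in sham and 3.22 in TAC hearts on high-fat diet, against 11.6 in sham and 11.6 in TAC hearts on control diet. These medians are not centred, so they carry the different level of each library.

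In the 160 regions called in all 4 libraries, 76 had both pairs higher and 20 both lower, against 24.3% and 24.4% of all regions. The median mean ratio of these 160 was 0.17. Their median was 0.27 in the sham pair and 0.05 in the TAC pair, so these regions lay above the all-region centre in the sham pair. These long regions (median 641 bp) had a correlation of 0.04 between the pairs, as had the 320 regions called in both control-diet libraries alone. In every other call class the correlation was negative. It ran from -0.21 (both high-fat libraries and no control-diet library) to -0.52 (1 library of each diet). The value near 0 over all regions therefore does not hold within most call classes, and the cause was not tested. The 31 regions called in both high-fat libraries and no control-diet library were all higher in both pairs and 9 of them were past the 2-fold rule. Over all regions these shares were 24.3% and 3.78%. Of the 320 regions called in both control-diet libraries alone, 216 were lower in both pairs and 6 past the rule, against 24.4% and 1.98% over all regions. These classes are defined by calls in the same libraries, so their directions only describe them.

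**Figure D2:**
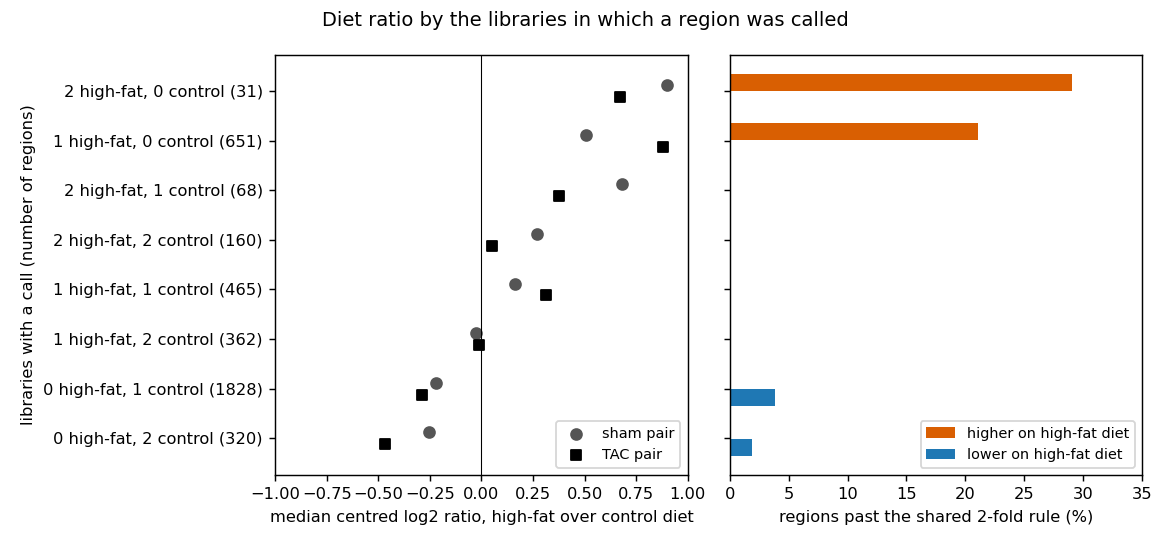
Regions are grouped by the number of high-fat and control-diet libraries with a call (number of regions in brackets). The left panel gives the median centred log2 ratio of high-fat over control diet per surgery pair and the right panel the share past the shared 2-fold rule, which is 0 wherever both diets have a call.

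Regions past the rule were short and thinly covered. Their median length was 238 bp when higher and 248 bp when lower, against 307 bp over all regions, and they held a median of 32.6 estimated fragments over the 4 libraries when higher and 31.4 when lower, against 53.9 over all regions. A promoter lay in 102 of the 147 higher regions (69.4%) and 50 of the 77 lower regions (64.9%), against 82.6% of all regions. CpG islands lay in 57.8% of the higher and 46.8% of the lower regions, against 73.7% of all regions. The median diet ratio differed little between kinds of region. It was 0.00 in promoters with a CpG island, -0.04 in promoters without one and -0.08 in gene windows with neither. In these gene windows the pairs pointed opposite ways, with -0.10 in the sham and 0.12 in the TAC pair. Regions with neither and no gene had -0.12, and those with 2 or more promoters 0.05. On the X chromosome (32 regions) the median was -0.16, with -0.41 in the sham and 0.02 in the TAC pair.

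The named regions are the 12 highest and the 12 lowest by the smaller of their 2 centred ratios, among agreeing regions whose highest signal reaches the median of that value over the table, 14.2. Intervals given with them are 95% exact (Clopper-Pearson) intervals of the log2 ratio of fragments summed over the 2 libraries of each diet, relative to all regions. They cover counting error at most, because amplified fragments carry no molecular identifiers. All 24 intervals exclude 0, as the choice of the regions by size makes likely, and all 24 limma p-values adjusted over the table were 0.373 or higher.

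The 12 regions higher in both pairs belong to genes of varied function. Zdhhc7, a palmitoyltransferase of the Golgi, had an average signal of 9 (sham) and 16.3 (TAC) on high-fat diet, against 4.29 (sham) and 3.33 (TAC) on control diet (chromosome 8, 120078214 to 120078444, 23143 bp from its start, downstream of the gene). Its centred ratios were 1.49 in the sham pair and 2.14 in the TAC pair (interval 0.88 to 3.42), and only the TAC library on high-fat diet carried a call. Slmo2, which encodes a lipid transfer protein of mitochondria, had 5.71 (sham) and 16.6 (TAC) on high-fat diet, against 1.25 (sham) and 6.57 (TAC) on control diet at a region 439 bp upstream. The sham signals were lower than the TAC signals on both diets, and the high-fat signal in sham hearts, 5.71, lay below the control-diet signal in TAC hearts. An adjoining region (chromosome 2, 174472809 to 174473251) had ratios of opposite sign, 1.27 in the sham pair and -0.63 in the TAC pair.

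Snai1, a transcriptional repressor of epithelial genes, had 17.1 (sham) and 8.43 (TAC) on high-fat diet, against 7.43 (sham) and 3.14 (TAC) on control diet (chromosome 2, 167537815 to 167538044). Here the sham signals were the higher ones on each diet, and the ratios were 1.68 in the sham pair and 1.33 in the TAC pair (interval 0.54 to 2.77). Nudt9, a mitochondrial ADP-ribose pyrophosphatase, had 16 (sham) and 17.1 (TAC) on high-fat diet, against 7.43 (sham) and 7.29 (TAC) on control diet (chromosome 5, 104046530 to 104046777). The libraries of each diet lay close together at this promoter, with ratios of 1.58 in the sham pair and 1.27 in the TAC pair (interval 0.69 to 2.52), and it had one of the 3 regions with the smallest limma p adjusted over the table, 0.373. The others at 0.373, named for their p after it was seen, were a region near Stk30, with 23 (sham) and 14.2 (TAC) on high-fat diet, against 5.83 (sham) and 12.7 (TAC) on control diet, and one at Zfyve21 and Xrcc3, with 16.6 (sham) and 17.5 (TAC) on high-fat diet, against 14.5 (sham) and 4.5 (TAC) on control diet. In both of these the control-diet signals of sham and TAC hearts lay far apart.

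Cnpy2, a protein of the endoplasmic reticulum, had 7.89 (sham) and 15.3 (TAC) on high-fat diet, against 3.56 (sham) and 7.56 (TAC) on control diet. At Lamtor2, a subunit of the Ragulator complex that brings mTORC1 to lysosomes, and Ubqln4, a shuttle to the proteasome, 1 shared promoter region had 14.9 (sham) and 14.8 (TAC) on high-fat diet, against 10.8 (sham) and 7.69 (TAC) on control diet. It was called in both high-fat libraries and its pairs were even, with 1.01 in the sham pair and 1.01 in the TAC pair (interval 0.36 to 1.70). Atg13, a subunit of the kinase complex that starts autophagy, shares a region with Harbi1 that had 10 (sham) and 15.7 (TAC) on high-fat diet, against 7.22 (sham) and 8 (TAC) on control diet. Btd, which frees biotin for reuse by carboxylases, had 9.43 (sham) and 14.6 (TAC) on high-fat diet, against 6 (sham) and 7.14 (TAC) on control diet at a CpG island 20891 bp into the gene. The other regions were at Arl10, Ltbp4 (a binding protein of latent TGF-beta), Phgr1 and Akip1, with mean ratios of 1.36, 1.47, 1.12 and 1.23. In 11 of the 12 regions both high-fat signals lay above both control-diet signals, as they did in 4.84% of all regions, and 10 of the 12 were called in TAC hearts on high-fat diet, as were 1396 of all 3885 regions. These regions were chosen by this very difference, so both counts only describe them.

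The 12 regions lower in both pairs were separated by diet in every case. Fosl2, a member of the AP-1 family of transcription factors, had 2.46 (sham) and 2.46 (TAC) on high-fat diet, against 14.3 (sham) and 11.9 (TAC) on control diet (chromosome 5, 32133684 to 32134084, 2588 bp upstream). Its ratios, -1.57 in the sham pair and -1.76 in the TAC pair (interval -3.24 to -0.98), were the largest agreeing ones among the named lower regions. Other Fosl2 regions did not share this size. That at 32135386 had -0.39 (sham pair) and -0.32 (TAC pair), and that at 32139712 had opposite signs, -0.29 and 0.905. Sel1l, the adaptor of the ubiquitin ligase that clears misfolded proteins from the endoplasmic reticulum, had 3.14 (sham) and 6.14 (TAC) on high-fat diet, against 13.6 (sham) and 18.3 (TAC) on control diet (chromosome 12, 91849302 to 91849507). Tnfaip3, which encodes the NF-kappaB inhibitor A20, had 3.91 (sham) and 5.46 (TAC) on high-fat diet, against 13.4 (sham) and 15 (TAC) on control diet (chromosome 10, 19015370 to 19015732). At each of the named Fosl2, Sel1l and Tnfaip3 regions the signal on high-fat diet was at most 6.14, below every control-diet value.

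Selrc1, a factor for the assembly of cytochrome c oxidase, had 3.62 (sham) and 2.62 (TAC) on high-fat diet, against 14.2 (sham) and 10.1 (TAC) on control diet. Slc6a6, the taurine transporter, had 3.75 (sham) and 4.75 (TAC) on high-fat diet, against 13.2 (sham) and 16.5 (TAC) on control diet at a region 45999 bp into the gene. Rnf168, a ubiquitin ligase of the DNA damage response, had 2.22 (sham) and 5.44 (TAC) on high-fat diet, against 9.56 (sham) and 14.9 (TAC) on control diet. The signals of these 3 regions were low on high-fat diet and separated by diet, with mean ratios of -1.31, -1.24 and -1.15.

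Gtf2ird2 had 4.6 (sham) and 5.9 (TAC) on high-fat diet, against 16.7 (sham) and 15.8 (TAC) on control diet. Gosr2, a SNARE protein of the Golgi, had 4.75 (sham) and 7.94 (TAC) on high-fat diet, against 16.3 (sham) and 18.2 (TAC) on control diet at the longest of the 12 lower regions (487 bp), with an interval of -1.74 to -0.41. The region shared by Erh and the zinc transporter gene Slc39a9 had 4.83 (sham) and 7.5 (TAC) on high-fat diet, against 16.3 (sham) and 17.4 (TAC) on control diet. Both of these longer regions were called in sham and TAC hearts on control diet. The remaining ones were at Fam49b, Fam63a and Prune, and Ppp1r8, a nuclear inhibitor of protein phosphatase 1, with mean ratios of -1.35, -1.01 and -0.98. In 12 of 12 lower regions both high-fat signals lay below both control-diet signals, as they did in 34.8% of all regions. These regions were chosen by this very difference, so the counts describe them and support nothing.

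At the edge of the 2-fold rule, the region of Wdr12 and Carf (mean ratio 1.00) was just inside and one at Inpp5k (0.998) just outside on the higher side. On the lower side, Cdkl4 (-1.003) was just inside and Gosr2 (-0.987) just outside. The pooled interval of Wdr12 and Carf, -0.09 to 2.20, includes 0, so the rule separates regions more finely than their counts do.

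**Figure D3:**
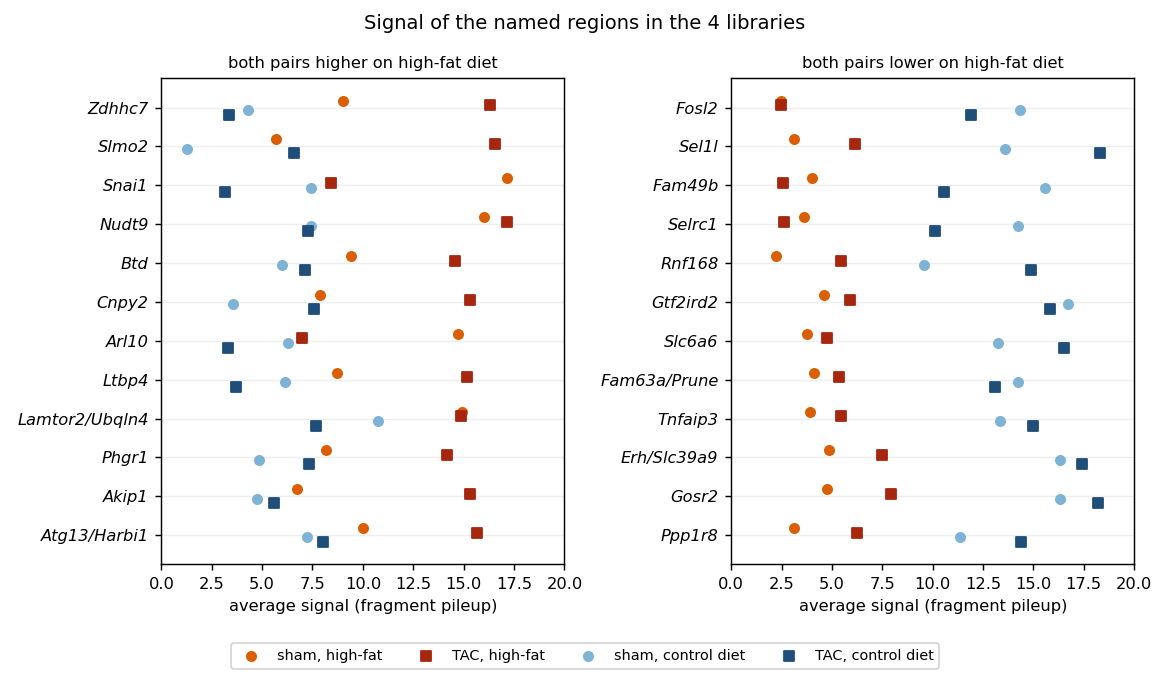
Average signal (fragment pileup) in each of the 4 libraries for the 12 named regions with both pairs higher on high-fat diet (left) and the 12 with both pairs lower (right), in order of the smaller ratio. In the right panel every high-fat point lies left of every control-diet point of its row, and in the left panel this is mirrored in 11 of 12 rows, all but Slmo2.

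Fuel genes were described by lists of pathway members, counted by region. Higher and lower refer to centred ratios unless given without centring. A region can thus count as higher although its high-fat signal lies below its control-diet signal in that pair. Over all 3885 regions 24.3% had both pairs higher, 24.4% both lower, and the median mean ratio was -0.01. Fatty acid uptake and activation had 8 regions for 4 of 18 genes, with 2 higher, 1 lower and 0 past the 2-fold rule. Its pairs pointed opposite ways, with medians of -0.56 in the sham and 0.75 in the TAC pair. Cd36, the main fatty acid transporter of the heart cell, gave 5 of these regions, and 4 of them had opposite signs. One inside that set (chromosome 5 at 17832426) had 1.33 (sham) and 3.67 (TAC) on high-fat diet, against 9 (sham) and 1 (TAC) on control diet. Acsl1, which activates long-chain fatty acids to acyl-CoA, had 3.5 (sham) and 14.8 (TAC) on high-fat diet, against 12 (sham) and 5.33 (TAC) on control diet 208 bp into the gene. In that Cd36 region the sham control-diet signal was the highest of the 4, while at Acsl1 sham hearts on control diet and TAC hearts on high-fat diet were both high. The agreeing members were Lpl, 1 Cd36 region and Fabp4. Lpl, lipoprotein lipase, had 10.8 (sham) and 6.5 (TAC) on high-fat diet, against 8.33 (sham) and 6 (TAC) on control diet. Its region lies 28348 bp from the start, downstream of the gene. Fabp4, a fatty acid binding protein, had 5.5 (sham) and 7.33 (TAC) on high-fat diet, against 10.5 (sham) and 10.5 (TAC) on control diet, at a region 5267 bp upstream.

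The carnitine shuttle, which carries fatty acyl groups into mitochondria, had 6 regions, of which 0 were higher and 2 lower in both pairs, with a median of -0.16. Cpt1b, the muscle form of the rate-limiting carnitine palmitoyltransferase, had 10.4 (sham) and 11.7 (TAC) on high-fat diet, against 6.64 (sham) and 17.1 (TAC) on control diet, with ratios of opposite sign (1.15 in the sham pair and -0.37 in the TAC pair). Cpt2 had 6.43 (sham) and 13.6 (TAC) on high-fat diet, against 15.6 (sham) and 10.9 (TAC) on control diet, and Cpt1a 5 (sham) and 7.73 (TAC) on high-fat diet, against 12.9 (sham) and 7.67 (TAC) on control diet. Mlycd, which breaks down the Cpt1 inhibitor malonyl-CoA, was lower in both pairs, with 9.43 (sham) and 3 (TAC) on high-fat diet, against 15.4 (sham) and 6.64 (TAC) on control diet. The region counted for Crat, carnitine acetyltransferase, lies 23189 bp from its start and nearer to Dolpp1, and had ratios of -0.62 in the sham pair and -0.17 in the TAC pair.

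Beta-oxidation enzymes had 7 regions, 0 higher, 2 lower and 5 with opposite signs, with a median of -0.19 (-0.50 in the sham and -0.19 in the TAC pair). Without centring the median was -0.55 and 4 of the 7 regions were lower in both pairs, against -0.37 and 46.0% over all regions. All 7 were called in control-diet libraries only, as were 2148 of all 3885 regions (55.3%). Acaa1a, the peroxisomal counterpart of ACAA2, had 6.25 (sham) and 7.5 (TAC) on high-fat diet, against 13.4 (sham) and 14.7 (TAC) on control diet, and Acad11, an acyl-CoA dehydrogenase, had 7.2 (sham) and 8.4 (TAC) on high-fat diet, against 16.2 (sham) and 13.4 (TAC) on control diet. These were the 2 lower members. Their high-fat signals all lay below their control-diet signals, as in 34.8% of all regions. Hadha and Hadhb, the subunits of the trifunctional protein, share a region with 7.36 (sham) and 8.43 (TAC) on high-fat diet, against 11.1 (sham) and 14.1 (TAC) on control diet. That region was separated in the same way, but its centred ratios were 0.03 in the sham pair and -0.54 in the TAC pair. Acadm, the medium-chain acyl-CoA dehydrogenase, had 5.12 (sham) and 11.9 (TAC) on high-fat diet, against 14 (sham) and 10.1 (TAC) on control diet. In that gene the pairs differed in sign, -0.72 in the sham pair and 0.35 in the TAC pair.

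Among PPAR targets, ketone and uncoupling genes, 3 of 8 regions were higher and 2 lower in both pairs, with a median of 0.12 (-0.24 without centring). Hilpda, a lipid droplet protein that inhibits triglyceride breakdown, had 11.5 (sham) and 11.3 (TAC) on high-fat diet, against 7.08 (sham) and 7.92 (TAC) on control diet (chromosome 6, 29272346 to 29272750, 60 bp into the gene). It was called in both high-fat libraries and neither control-diet library, and its ratios were 1.20 in the sham pair and 0.61 in the TAC pair (interval 0.23 to 1.72). Acot2, a mitochondrial acyl-CoA thioesterase, had 5.12 (sham) and 13.6 (TAC) on high-fat diet, against 5.88 (sham) and 8.25 (TAC) on control diet. Oxct1, the enzyme that commits ketone bodies to oxidation, had 5.54 (sham) and 5.23 (TAC) on high-fat diet, against 13.2 (sham) and 6.69 (TAC) on control diet, and Acat1, the ketone thiolase of mitochondria, 12.4 (sham) and 3.14 (TAC) on high-fat diet, against 12.1 (sham) and 8.86 (TAC) on control diet. Pnpla2, the triglyceride lipase of lipid droplets, had 1 region higher, 1 lower and 1 of opposite signs. The higher region lies 7673 bp upstream and is nearer to Rplp2.

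Metabolic nuclear receptors and coregulators had 3 of 18 regions higher and 4 lower in both pairs, with a median of 0.01. Ppara itself had 3.29 (sham) and 9.43 (TAC) on high-fat diet, against 13.3 (sham) and 8.71 (TAC) on control diet, with opposite signs (-1.16 in the sham pair and 0.25 in the TAC pair). Esrra, a nuclear receptor that drives mitochondrial genes, had 10.2 (sham) and 7.2 (TAC) on high-fat diet, against 16.6 (sham) and 11.3 (TAC) on control diet, and the corepressor gene Ncor1, counted from a region nearer to Pigl, 3.6 (sham) and 4.4 (TAC) on high-fat diet, against 12 (sham) and 7.44 (TAC) on control diet. Both had lower ratios in each pair, and of the 2 only Esrra had a call on high-fat diet. The list's 1 region past the 2-fold rule is at Nr1d1 and is given with the clock.

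Genes of triglyceride, sterol and sphingolipid synthesis had 2 of 13 regions higher and 2 lower in both pairs, and 1 past the 2-fold rule, on the lower side. Dgat2, which makes triglycerides, had 16.8 (sham) and 22.5 (TAC) on high-fat diet, against 25.8 (sham) and 13.9 (TAC) on control diet. Fasn, fatty acid synthase, had 10.1 (sham) and 12.3 (TAC) on high-fat diet, against 17.9 (sham) and 22.4 (TAC) on control diet, lower in both pairs (-0.20 in the sham pair and -0.67 in the TAC pair). Elovl5, a fatty acid elongase, had 1 region higher and a neighbouring one lower: at 77910386 on chromosome 9 the signal was 4.43 (sham) and 17.6 (TAC) on high-fat diet, against 4.86 (sham) and 10.6 (TAC) on control diet, and at 77910879 it was 3.67 (sham) and 2.83 (TAC) on high-fat diet, against 7.36 (sham) and 13.2 (TAC) on control diet. The region at 77910879 is the 1 past the rule (interval -2.29 to -0.33), so neighbouring regions at Elovl5 pointed opposite ways.

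In the TCA cycle and pyruvate dehydrogenase list 6 of 21 regions were higher and 4 lower in both pairs, with a median of 0.16 (-0.20 without centring). Mdh2, mitochondrial malate dehydrogenase, had 2 regions, both higher. One of them had 5.44 (sham) and 13 (TAC) on high-fat diet, against 4 (sham) and 4.78 (TAC) on control diet, with ratios of 0.94 in the sham pair and 1.42 in the TAC pair (interval 0.33 to 2.61), and the other 8.23 (sham) and 15.9 (TAC) on high-fat diet, against 8.46 (sham) and 12.2 (TAC) on control diet. The list's lower region past the rule was at Pdk2, a kinase that switches off pyruvate dehydrogenase, with 1.57 (sham) and 2.57 (TAC) on high-fat diet, against 13.6 (sham) and 5.29 (TAC) on control diet (interval -3.83 to -0.20). A second Pdk2 region next to it was higher in both pairs, with 7.62 (sham) and 18.3 (TAC) on high-fat diet, against 10.1 (sham) and 11.9 (TAC) on control diet. Its centred ratios were 0.21 in the sham pair and 0.73 in the TAC pair, so it was higher in the sham pair only after centring. Pdk1 had 6.14 (sham) and 3.86 (TAC) on high-fat diet, against 14.9 (sham) and 8.14 (TAC) on control diet, and both subunits of the mitochondrial pyruvate carrier were lower in each pair: Mpc1 with 8.12 (sham) and 10.1 (TAC) on high-fat diet, against 15.9 (sham) and 12.9 (TAC) on control diet and Mpc2 with 10.9 (sham) and 15.6 (TAC) on high-fat diet, against 18.3 (sham) and 24.5 (TAC) on control diet. Pyruvate carboxylase (Pcx) had 7.86 (sham) and 15.3 (TAC) on high-fat diet, against 4.71 (sham) and 11.3 (TAC) on control diet.

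Glycolysis had 2 of 11 regions higher and 2 lower in both pairs, with a median of -0.002. Pfkfb3, which makes the activator of phosphofructokinase, gave 1 of each: 8.86 (sham) and 16.1 (TAC) on high-fat diet, against 9 (sham) and 9.71 (TAC) on control diet at 11502077 and 6.47 (sham) and 9.13 (TAC) on high-fat diet, against 19.5 (sham) and 17.1 (TAC) on control diet at 11535275 on chromosome 2, both inside the gene. Insulin, mTOR and FoxO signalling had 7 of 29 regions higher and 6 lower, close to the shares over all regions. The insulin receptor gene Insr had 7.67 (sham) and 11.4 (TAC) on high-fat diet, against 10.4 (sham) and 11.3 (TAC) on control diet, and Irs1, a receptor substrate, 5.5 (sham) and 11.8 (TAC) on high-fat diet, against 9.75 (sham) and 16.6 (TAC) on control diet. Rps6kb1, the S6 kinase downstream of mTORC1, had 6 (sham) and 4.83 (TAC) on high-fat diet, against 16.7 (sham) and 8.17 (TAC) on control diet. The pooled interval of Rps6kb1, -1.94 to 0.32, includes 0.

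Outside fuel use, too, no region passed the test. Calcium handling and ion channels had 7 of 13 regions higher and 0 lower in both pairs, with a median of 0.29. Without centring 3 were higher and 2 lower, with a median of -0.07. Over all regions 8.26% were then higher and 46.0% lower, with a median of -0.37. Pln, phospholamban, the inhibitor of the calcium pump of the sarcoplasmic reticulum, had 11.2 (sham) and 2.33 (TAC) on high-fat diet, against 1 (sham) and 1.17 (TAC) on control diet at a region 2917 bp upstream. The ratios were 3.18 in the sham pair and 0.77 in the TAC pair, and the sham library on high-fat diet alone was high. Camk2d, the main calmodulin kinase II of the heart, had 2 higher regions inside the gene, with 12.1 (sham) and 10.1 (TAC) on high-fat diet, against 8.57 (sham) and 8.43 (TAC) on control diet and with 3.62 (sham) and 11.9 (TAC) on high-fat diet, against 2.25 (sham) and 6.12 (TAC) on control diet. The calmodulin gene Calm2 had 3.6 (sham) and 9.2 (TAC) on high-fat diet, against 15.6 (sham) and 7.5 (TAC) on control diet, with opposite signs. Of the 13 regions 6 were called in high-fat libraries only, against 682 of 3885 over the table.

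Heat shock and chaperone genes had 7 of 18 regions higher and 1 lower, with a median of 0.26. Without centring the median was -0.10, with 2 higher and 6 lower, against 8.26% higher and 46.0% lower over all regions. In this list the sham pair contributed a centred median of 0.01 and the TAC pair 0.46. The region counted for Hspa1b, an inducible Hsp70 gene, lies 6515 bp from its start and had 10.8 (sham) and 13.6 (TAC) on high-fat diet, against 10.3 (sham) and 9.56 (TAC) on control diet. Hspb1, a small heat shock protein, had 12.5 (sham) and 7.62 (TAC) on high-fat diet, against 11.5 (sham) and 5.88 (TAC) on control diet, and the heat shock factor gene Hsf1 3.86 (sham) and 13.9 (TAC) on high-fat diet, against 5.43 (sham) and 6.57 (TAC) on control diet. The last was high in TAC hearts on high-fat diet alone.

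The histone acetylation list had 0 of 15 regions higher and 7 lower in both pairs, with a median of -0.13. Without centring 0 were higher and 11 lower, against 8.26% and 46.0% over all regions. Brd2, a reader of acetylated histones, gave 4 of the 7 in neighbouring regions, so these are not separate loci. Its region with the highest signal had 10.3 (sham) and 14.3 (TAC) on high-fat diet, against 16.5 (sham) and 18.6 (TAC) on control diet. Kat5, the acetyltransferase Tip60, had 9.47 (sham) and 4.68 (TAC) on high-fat diet, against 17.7 (sham) and 12.8 (TAC) on control diet, Kat6b 6.47 (sham) and 10.3 (TAC) on high-fat diet, against 14.7 (sham) and 14.2 (TAC) on control diet and Kat7 8.89 (sham) and 11.7 (TAC) on high-fat diet, against 14.5 (sham) and 13.9 (TAC) on control diet. Both regions of Ep300, the acetyltransferase p300, had opposite signs, and the stronger had 4.43 (sham) and 8.14 (TAC) on high-fat diet, against 1.67 (sham) and 14.6 (TAC) on control diet. The deacetylase gene Sirt3 had 6.57 (sham) and 9.14 (TAC) on high-fat diet, against 17.3 (sham) and 9.43 (TAC) on control diet.

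Clock genes had 5 of 28 regions higher and 4 lower, and 19 with opposite signs. Nr1d1, which encodes the clock repressor Rev-erb-alpha, had 5 neighbouring regions, of which the 1 past the rule had 7.83 (sham) and 16.7 (TAC) on high-fat diet, against 6.5 (sham) and 7.42 (TAC) on control diet (chromosome 11, 98774551 to 98774920; interval 0.39 to 1.97). The other 4 had opposite signs in the pairs. The promoter region of Tef, a clock output factor, was lower, with 7.14 (sham) and 7.57 (TAC) on high-fat diet, against 24.1 (sham) and 16.1 (TAC) on control diet (interval -2.08 to -0.24). Of the other Tef regions on chromosome 15, that at 81831533 was higher (0.48 in the sham and 0.50 in the TAC pair). That at 81811059 was lower (-0.18 and -0.03), and those at 81809935 and 81810280 had opposite signs. Dbp, a related factor, had 5 regions, of which 1 was lower in both pairs, with 7.93 (sham) and 9.53 (TAC) on high-fat diet, against 16.3 (sham) and 19 (TAC) on control diet, and 0 higher.

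Immediate early genes had 10 of 43 regions higher and 8 lower, with a median of -0.02, and the Fosl2 region described above was the 1 past the rule. The unfolded protein response had 2 of 15 higher and 4 lower. Beside Sel1l, its sensor gene Atf6 was lower in both pairs, with 4.18 (sham) and 7.64 (TAC) on high-fat diet, against 12.6 (sham) and 17.1 (TAC) on control diet, while Atf4, the transcription factor of the integrated stress response, was counted higher from a region 8831 bp from its start and nearer to Rps19bp1, with 3.4 (sham) and 10 (TAC) on high-fat diet, against 3.57 (sham) and 2.7 (TAC) on control diet (interval 0.26 to 2.94). The Sel1l and Atf4 regions were the 2 past the rule. Ern1, the IRE1 sensor, had 2.67 (sham) and 19 (TAC) on high-fat diet, against 10.7 (sham) and 6.17 (TAC) on control diet, with opposite signs. Oxidative stress genes had 3 of 15 higher and 4 lower, among them Sod1, superoxide dismutase, with 10.3 (sham) and 13.4 (TAC) on high-fat diet, against 9.29 (sham) and 11.1 (TAC) on control diet, and Hmox1, heme oxygenase, with 5.62 (sham) and 2.88 (TAC) on high-fat diet, against 13.5 (sham) and 4.38 (TAC) on control diet.

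Hypertrophy genes had 1 of 15 regions higher and 5 lower, with a median of -0.19. Smad3, a transducer of TGF-beta signals, had 7.12 (sham) and 1 (TAC) on high-fat diet, against 17.6 (sham) and 11.4 (TAC) on control diet at its promoter, a mean ratio of -1.55 (interval -2.68 to -0.31) that came mainly from the TAC pair. Mef2d, a transcription factor of the hypertrophic response, had 1 region past the rule on the higher side, with 3.8 (sham) and 14.6 (TAC) on high-fat diet, against 4.82 (sham) and 4.27 (TAC) on control diet, and 2 lower ones nearby. Sarcomere and Z-disc genes had 2 of 11 higher and 3 lower. Titin (Ttn) had 2.71 (sham) and 1 (TAC) on high-fat diet, against 11.7 (sham) and 2.43 (TAC) on control diet in the gene body, where all signals but that of sham hearts on control diet were under 3.

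Large sets of housekeeping genes lay near the table as a whole. The proteasome shares were less close, but rest on only 21 regions. Of these 38.1% were higher and 28.6% lower, against 24.3% and 24.4% of all regions. Quantile normalization gave 6 higher and 6 lower, and centring on regions called in all 4 libraries 3 and 7. Without centring 0 were higher and 12 lower, against 8.26% and 46.0% of all regions. These counts therefore do not set the proteasome apart. Ribosomal protein genes had 15 of 62 regions higher and 13 lower (median 0.02), oxidative phosphorylation 10 of 49 and 9 (0.06), splicing and RNA polymerase II 14 of 52 and 15 (0.08), and the proteasome 8 of 21 and 6 (-0.17). The proteasome median is negative although more of its regions were higher and the medians of its single pairs were 0.04 (sham) and 0.09 (TAC). Psmb4, a subunit of the proteasome core, had 1.62 (sham) and 3.88 (TAC) on high-fat diet, against 14.8 (sham) and 7.88 (TAC) on control diet (interval -3.27 to -0.38). Of the oxidative phosphorylation regions 2 were past the rule on the higher side, the Slmo2 region, which the table also assigns to Atp5e at 9279 bp, and one at Ndufa12 with 11.7 (sham) and 7.59 (TAC) on high-fat diet, against 4.82 (sham) and 6.65 (TAC) on control diet.

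Markers of cell types had few regions: 2 of 8 cardiomyocyte, 2 of 12 endothelial, and 1 gene each of 10 fibroblast, 10 macrophage and leukocyte, 8 smooth muscle and pericyte and 8 adipocyte markers. Binding at a marker's DNA is no measure of its expression, so these lists cannot show the makeup of the pools. Of the cardiomyocyte markers Pln was higher, as given above, and Myh6 had 6.43 (sham) and 5.14 (TAC) on high-fat diet, against 12.3 (sham) and 5.14 (TAC) on control diet. Kdr, a marker of endothelium, had 3.57 (sham) and 4.86 (TAC) on high-fat diet, against 14.4 (sham) and 2.33 (TAC) on control diet, and Vim, of the fibroblast list, 3.79 (sham) and 6.64 (TAC) on high-fat diet, against 5.64 (sham) and 15.1 (TAC) on control diet. Both had opposite signs in the pairs. Esam, an endothelial adhesion protein, was lower in each pair, with 2.11 (sham) and 3.78 (TAC) on high-fat diet, against 11.6 (sham) and 4.67 (TAC) on control diet. Cnn1, of smooth muscle, was counted from a region 17924 bp from its start and nearer to Elof1. That region had 3.78 (sham) and 8.11 (TAC) on high-fat diet, against 13.4 (sham) and 6 (TAC) on control diet. Fabp4, of adipocytes, is given above. The macrophage marker Cd68 was counted from 3 regions near its neighbours, 1 of them higher.

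**Figure D4:**
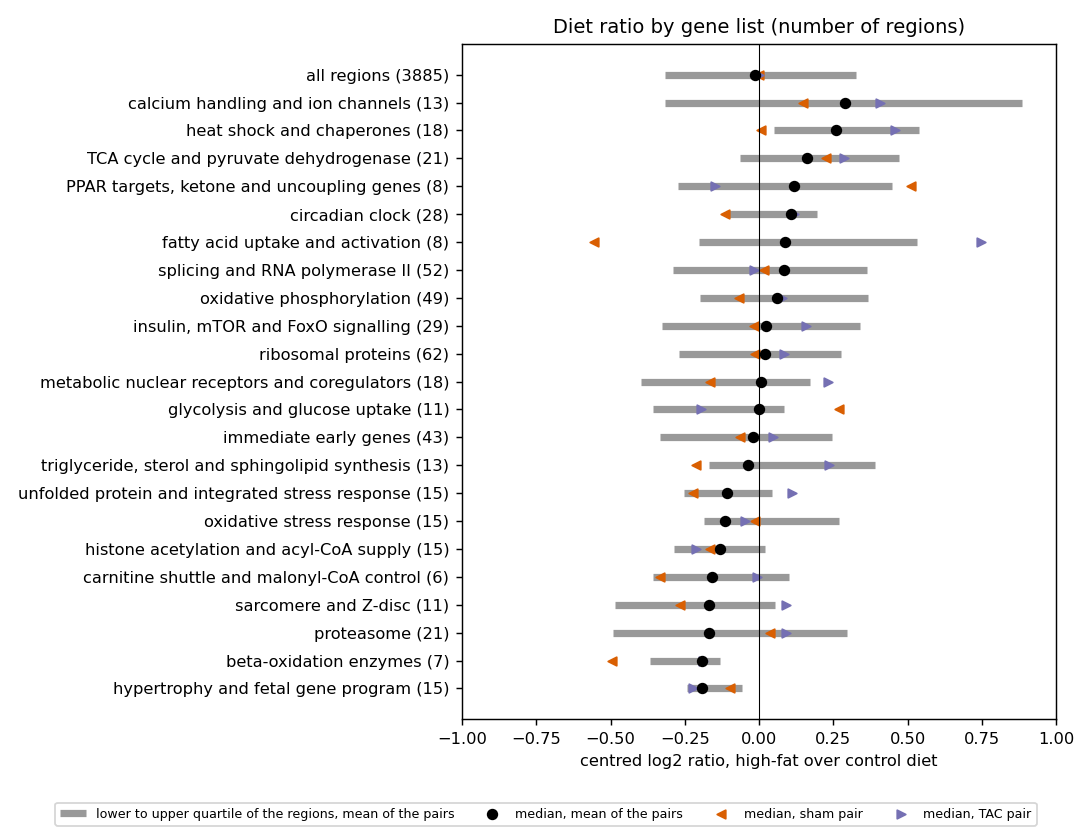
Centred log2 ratio of high-fat over control diet for the regions of each gene list (number of regions in brackets), ordered by the median, with all regions on top. The black medians lie between -0.19 and 0.29, the grey bars (from the lower to the upper quartile) of 19 of the 22 lists reach across 0, and the sham and TAC medians often fall on opposite sides, as in fatty acid uptake with -0.56 and 0.75.

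RefSeq start windows overlapped 2182 of the 3885 regions, with 2890 windows in all. The GC content of these windows did not go with the diet ratio: the Pearson correlation over regions was 0.006 in the sham and 0.012 in the TAC pair. The median GC content was 60.7% for the 72 windows at 2-fold higher regions and 60.5% for the 24 at 2-fold lower regions, against 62.0% for all windows with a region and 52.7% for all 32851 windows in the table. The motifs searched on both strands were the GC box GGGCGG, the CCAAT box CCAAT, the TATA box TATAAA, the cAMP response element TGACGTCA, the E-box CACGTG, the ETS motif CCGGAAG, the ERR element TCAAGGTCA, which can share its AGGTCA with a DR1 element, AP-1 TGANTCA, and by name the NRF1, YY1 and MEF2 motifs and the DR1 element of PPAR and RXR.

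The GC box stood in 66.7% of windows at 2-fold higher and 66.7% at 2-fold lower regions, against 69.5% at all regions and 35.7% of all windows in the table. CCAAT stood in 40.3% (2-fold higher) and 37.5% (2-fold lower), against 45.0% (all regions) and 37.4% (table). ETS stood in 22.2% (2-fold higher) and 8.33% (2-fold lower), against 27.6% (all regions) and 8.86% (table), and TATAAA in 2.78% (2-fold higher) and 20.8% (2-fold lower), against 6.82% (all regions) and 13.6% (table). AP-1 stood in 2.78% (2-fold higher) and 12.5% (2-fold lower), against 3.91% (all regions) and 7.81% (table), and the E-box in 12.5% (2-fold higher) and 12.5% (2-fold lower), against 12.3% (all regions) and 7.15% (table). The lower set has only 24 windows, so each window counts for about 4.17% (1 in 24). With all regions lower in both pairs (679 windows), TATAAA stood in 6.48%, AP-1 in 3.39% and ETS in 24.7%, close to the shares at all regions. NRF1 stood in 1.39% (2-fold higher) and 4.17% (2-fold lower), against 2.35% (all regions) and 0.971% (table), and the cAMP response element in 2.78% (2-fold higher) and 0% (2-fold lower), against 4.74% (all regions) and 1.79% (table). The DR1 element stood in 0% of windows at regions and 0.0396% of the table, and YY1, MEF2 and the ERR element in 0% of windows in both 2-fold sets, against 2.11%, 0.173% and 0.138% at all regions and 0.633%, 0.11% and 0.423% in the table.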

How the data were processed

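Anti-ACAA2 ChIP-seq libraries of 4 pooled heart samples were read from 1 table of merged regions. Per the submitters' processing notes, BWA and SICER were used with mm10. The sources used here give no versions, read filters, call cutoff or depth matching. The deposited signal, per the file headers, is fragment pileup (average and highest) per region and library, and 100% of the highest values were whole. Marks of called intervals and numbers of promoters, CpG islands and genes were used as deposited (other whole numbers). Fragments were estimated as signal times region length over 224, the constant behind the deposited tag estimates.

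Log2 ratios used a pseudocount of 1 and were centred per surgery pair. limma 3.58.1 (R 4.3.3) was fitted on the log2 signal with diet and surgery terms, an intensity trend and Benjamini-Hochberg adjustment at 0.05, and tested on simulated data. Intervals and correlations came from scipy 1.17.1. Surgery pairs the libraries by label; replicate numbers do not. Named regions follow the rule given with them; each of the 28 gene lists also named its most agreeing region in each direction and that with the highest mean signal, of which a part is described, and other list members were chosen after their values were seen. The 4 most opposed regions are given at the end. A region carries its nearest gene symbol and any within 1000 bp; predicted genes, Rik and microRNA names were skipped (1 region left out). Of 5134 symbols 5014 matched RefSeq, and 1933 regions list 2 or more genes. Members and lists were chosen with earlier results of these data known. Alternatives covered pseudocounts of 0.5 and 5, centring, quantile normalization, peak signal, call classes, single-gene regions, a signal filter, fits without the pairing or trend, and libraries left out.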

Additional observations from a re-analysis of the deposited data

Results flagged for a closer look

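In the named regions that disagreed most, the diet ratio had opposite signs in sham and TAC hearts. Signals are average fragment pileups. This difference was not tested, since each pair is 1 library per diet. Fndc3b (inside the gene) had 2.5 (sham) and 12.6 (TAC) on high-fat diet, against 18.4 (sham) and 4.1 (TAC) on control diet, with centred log2 ratios of -1.90 in the sham pair and 1.56 in the TAC pair. Enthd2 (at its promoter) had 14.3 (sham) and 6.86 (TAC) on high-fat diet, against 6.14 (sham) and 22.6 (TAC) on control diet, with centred log2 ratios of 1.67 in the sham pair and -1.44 in the TAC pair. Tmem38b (2126 bp upstream of this gene for an intracellular cation channel) had 7.44 (sham) and 4.69 (TAC) on high-fat diet, against 3.81 (sham) and 15.3 (TAC) on control diet, with centred log2 ratios of 1.38 in the sham pair and -1.38 in the TAC pair. Ccdc171 (at its promoter) had 17.5 (sham) and 3.62 (TAC) on high-fat diet, against 7 (sham) and 12.1 (TAC) on control diet, with centred log2 ratios of 1.78 in the sham pair and -1.36 in the TAC pair. The highest signal was that of sham hearts on control diet at Fndc3b, of TAC hearts on control diet at Enthd2 and Tmem38b, and of sham hearts on high-fat diet at Ccdc171. Their mean ratios were -0.17, 0.12, 0.00 and 0.21.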

How the results depend on the processing

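The results on diet kept 0 limma calls in either direction under the alternatives run with all 4 libraries. Without the pairing by surgery (no replicate block) limma also called 0 higher and 0 lower. In that fit with 1 library left out in turn the higher calls ranged from 0 to 1 and the lower calls stayed at 0. The 1 call, at Zfyve21 and Xrcc3 without sham hearts on control diet, had a log2 ratio of 2.07 and a limma adjusted p of 0.046, against 0.373 with all libraries, and there the lone control library was assumed to vary like the other diet.

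Counts past the shared 2-fold rule, 147 higher and 77 lower, moved with most settings. They were 23 and 1 with a pseudocount of 5, 37 and 317 without centring, 72 and 152 with centring on regions called in all 4 libraries, and 96 and 73 with the highest signal. In regions with mean signal at or above the median they were 14 and 12, in regions called in as many libraries of each diet 0 and 0, without regions called on control diet only 47 and 3, and in regions with exactly 1 gene 71 and 36, where fewer regions were tested. With 1 surgery pair left out they ranged from 321 to 368 higher and from 266 to 307 lower. The share of agreeing regions was 54.2% without centring, 50.4% with centring on regions called in all 4 libraries and 33.4% in the 625 regions called in as many libraries of each diet, centred anew. The correlation between the pairs was -0.47 in those regions and -0.085 without regions called on control diet only. The cause of these shifts was not tested.

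Of 676 values of named regions under the alternatives 675 moved by less than their error, and of 256 list medians 188. The count for named regions says little about stability, since single regions have wide intervals (0.69 to 2.52 at Nudt9). Leaving out the centring shifted the median of the mean ratio by -0.36. The sign of every pathway list median above 0 depended on the centring, since all were below 0 without it (calcium -0.07, heat shock -0.10). With centring on regions called in all 4 libraries, calcium (0.13) and heat shock (0.10) stayed above 0 and were the highest of the pathway lists. With 1 pool per group, about 10 to 16 fragments per median region and no biological replicate, single regions cannot be resolved.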
